A study of Mus musculus with 31 samples.

Results

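Oocytes labelled Type5a (5 libraries) were set against oocytes labelled Type2 (3 libraries) to describe which DNA methylation is present before the large rise between Type5a and Type5b. These are 8 of the 31 libraries of a series on mouse oocytes from 9 stages of follicle growth, numbered Type1 to Type7 in the titles. The members were taken by title, and 80168 of the 163350 tiles of 100 bp measured in any library could be tested between them. Type5a oocytes came from secondary follicles and Type2 oocytes from primordial follicles. All were from B6D2F1 mice, a cross of the C57BL/6 and DBA/2 strains, and no treatment is named. A further label gives embryo stages, which contradict the titles, and was not used. The number of oocytes or animals behind a library is not given. The p-values below therefore rest on spread between libraries, which can be technical in origin, and not on spread between animals. Tests of single tiles and gene starts took that spread from libraries of all 9 stages, moderated over tiles or starts, unless a fit on the 2 stages alone is named. The assay was reduced representation bisulfite sequencing, in which the enzyme MspI cuts DNA at CCGG and mostly CpG-rich fragments are read.

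Mouse germ cells lose most of their DNA methylation before birth. Growing oocytes regain it mainly through the methyltransferase DNMT3A and its partner DNMT3L, largely within transcribed regions, while many CpG islands remain unmethylated. Maternal germline imprints are methylation marks that later set the maternal copy of an imprinted region apart from the paternal copy. They are set in the same period, and different loci are known to reach full methylation at different times. No gene annotation of the files' build (mm9) was used here, so tiles are given by position. The start regions of 7884 genes were placed by matching the spacing and neighbouring bases of their CpGs to the listed sites.

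The sequence that precedes the start of Mcts2, an imprinted retrogene methylated on the maternal copy, is shown because it is the germline imprint whose window was called higher in Type5a. The 250 bases before the start are from RefSeq (GRCm38.p6, chromosome 2, plus strand), and capitals mark the 16 CpGs measured with at least 5 reads in a Type5a or Type2 library.
Mcts2: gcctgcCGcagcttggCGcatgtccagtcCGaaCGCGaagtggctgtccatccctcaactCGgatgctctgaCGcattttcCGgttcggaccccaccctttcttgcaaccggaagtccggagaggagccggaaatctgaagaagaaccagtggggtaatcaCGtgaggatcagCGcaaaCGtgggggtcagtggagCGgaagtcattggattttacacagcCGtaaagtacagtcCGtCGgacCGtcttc

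Type5a libraries were shallower and less alike than Type2 libraries. Reads over CpG sites numbered 12808322 to 38682543 in Type5a and 44537103 to 45881088 in Type2. Between 397614 and 775364 sites had at least 5 reads in Type5a libraries, against 542367 to 693110 in Type2. Over the tiles measured in all 8 libraries, Type5a libraries differed from each other by 12.2 points on average (10 pairs, 9.66 to 15.7) and Type2 libraries by 5.74 points (3 pairs, 5.02 to 6.13). Type5a replicates 5 and 7 stood apart in the X measure, the level of CpG-dense tiles on the X chromosome (63 tiles with at least 60 listed sites per kb) minus that of CpG-dense autosomal tiles. It was 0.946 and 3.20 points in replicates 5 and 7, and -3.89, -3.69 and -3.79 points in replicates 1, 4 and 6, against -2.40, -2.83 and -2.37 points in Type2 replicates 1 to 3. As background, one X is inactive in female somatic cells, but not in growing oocytes, and carries methylated CpG islands. Type4 libraries averaged 4.61 points, the highest at 10.5. No other marker of somatic cells was looked at, and what part the X measure of these 2 libraries had in the results was not tested. The main differences in level and the counts of called tiles are also given without these 2 libraries. Named tiles, runs and the levels of called tiles in other stages are not.

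Methylation was already above the Type2 level in Type5a, but by little over the average tile. Over the 24966 tiles measured in all 8 libraries, the mean level was 27, 22.5, 31.4, 23.6 and 35.3% in Type5a replicates 1, 4, 5, 6 and 7, against 20.6, 20.7 and 22.5% in Type2 replicates 1 to 3. Type5a replicate 4 equalled the highest Type2 library to 3 digits and the others lay above all Type2 libraries. The mean was 27.9% ± 5.37 (SD, n = 5) in Type5a and 21.3% ± 1.05 (n = 3) in Type2, a difference of 6.67 points that missed the threshold (two-sided exact permutation p = 0.0714, with 0.0357 the smallest p that 5 against 3 libraries allow). Without replicates 5 and 7 the difference was 3.09 points. On this measure Type5a was not the highest of the stages up to it. Type3b averaged 28.4% ± 2.49 (n = 3) and Type4 32.9% ± 7.32 (n = 5), while Type1 and Type3a averaged 23.1 and 24.6%. Among all tested tiles, 65% had a higher mean in Type5a, the median difference was 2 points, and 52.2% were below 10% in both stages.

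Tiles that end up methylated in the latest stage, Type7, were higher in every Type5a library. Tiles below 10% in Type1 and above 80% in Type7 (4803 tiles, called low-to-high tiles here, and chosen from libraries outside the comparison) had a mean level of 27.5, 9.79, 21.2, 15.5 and 29.6% in Type5a replicates 1, 4, 5, 6 and 7, against 1.53, 1.41 and 4.46% in Type2. No Type5a library overlapped a Type2 library. The means were 20.7% ± 8.25 (SD, n = 5) in Type5a and 2.47% ± 1.72 (n = 3) in Type2, a difference of 18.3 points (two-sided exact permutation p = 0.0357, the smallest possible). On the scale from the Type2 to the Type7 mean, Type5a libraries had covered 26.6, 7.77, 19.9, 13.8 and 28.8% of the way. Without replicates 5 and 7 the difference was 15.1 points, with every remaining Type5a library above every Type2 library.

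**Figure D1:**
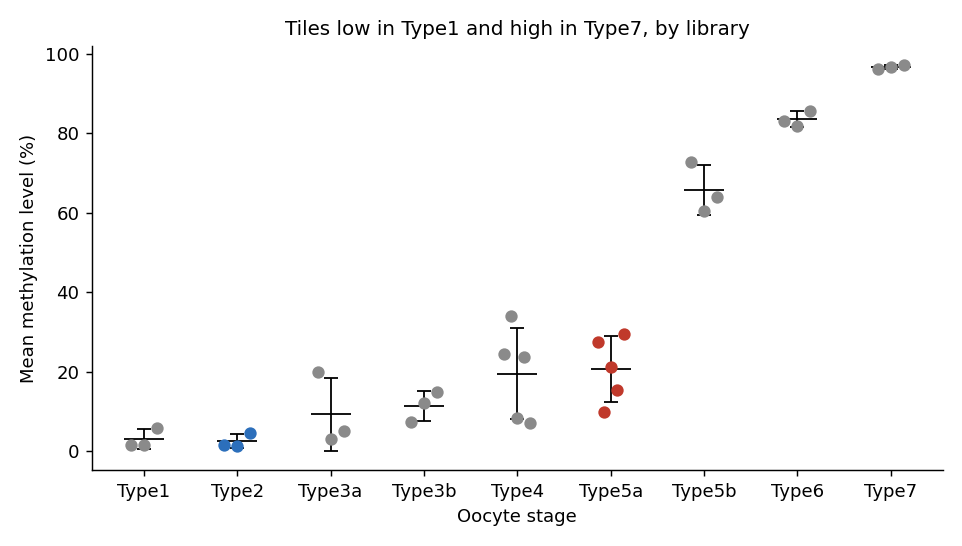
Mean methylation level in percent (vertical axis) of tiles below 10% in Type1 and above 80% in Type7, for each library (points) of the 9 oocyte stages in their order, with the mean and SD as black bars; Type5a is red and Type2 blue. Type5a libraries lie between 9.79 and 29.6%, above the 3 Type2 libraries and below the 3 Type5b libraries.

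In these tiles Type4, also from secondary follicles, averaged 19.5% ± 11.6 (n = 5, 7.03 to 34%), so the Type5a libraries lay within its range. The primary-follicle stages averaged 9.29% ± 9.24 in Type3a and 11.5% ± 3.83 in Type3b (n = 3 each). Type5b averaged 65.7% ± 6.35, Type6 83.6% ± 1.98 and Type7 96.7% ± 0.486 (n = 3 each).

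Early methylation in Type5a was uneven over the low-to-high tiles. The share of them at 50% or more was 22.5, 4.11, 13.5, 11 and 21.4% in Type5a replicates 1, 4, 5, 6 and 7, against 0.131, 0.0448 and 0.58% in Type2 replicates 1 to 3. Still below 10% were 37.1, 70.4, 45.0, 63.5 and 27.5% of tiles in Type5a and 96.3, 96.3 and 85.5% in Type2. The remaining tiles, at 10 to 50%, made up 25.4 to 51.1% in Type5a and 3.62 to 14% in Type2. The highest tiles were shared in part between libraries. Of tiles at 50% or more in one Type5a library, a median of 24.6% (6.80 to 39.7% over the 20 ordered pairs) were at 50% or more in another, against 11.2% (3.28 to 22.4%) of the other tiles.

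**Figure D2:**
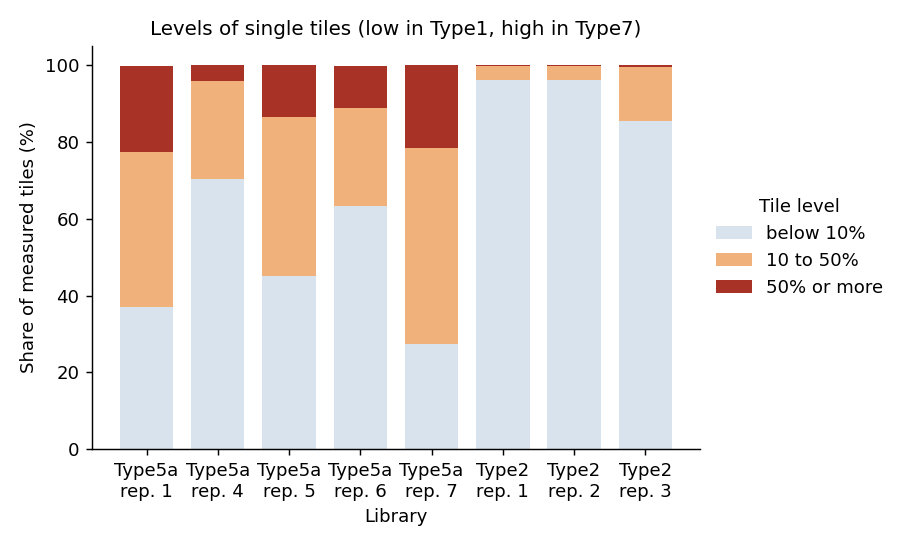
Share in percent (vertical axis) of the measured low-to-high tiles at a level below 10%, at 10 to 50% and at 50% or more, in each of the 5 Type5a and 3 Type2 libraries (bars). Type5a libraries hold 4.11 to 22.5% of these tiles at 50% or more, and Type2 libraries at most 0.58%.

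The tiles ahead in Type5a were those that became most methylated in Type5b. Low-to-high tiles above 80% in Type5b (1566 tiles) had 41.5, 15.1, 27.7, 24.6 and 38.6% in Type5a replicates 1, 4, 5, 6 and 7, against 1.64, 1.37 and 4.80% in Type2. Those between 20 and 80% in Type5b (1930 tiles) averaged 16.2% ± 7.51 in Type5a and 2.49% ± 1.61 in Type2. Those still below 20% in Type5b (355 tiles) averaged 5.45% ± 4.14 (1.49 to 11.2%) in Type5a and 1.47% ± 0.803 (0.978 to 2.40%) in Type2, with libraries that overlapped. Within each library, the first class lay above the last by 37.9, 13.6, 19.3, 22 and 27.4 points in Type5a, against 0.658, 0.326 and 2.40 points in Type2. This gap was 22.9 points wider in Type5a (two-sided exact permutation p = 0.0357), and 23.4 points without replicates 5 and 7. Type4 showed the same order, with a gap of 15.1 ± 8.99 points (n = 5, 5.25 to 24.1) that overlapped the Type5a range. In the primary-follicle stages the gap averaged 5.55 points in Type3a and 7.53 points in Type3b, so the order was not particular to Type5a.

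**Figure D3:**
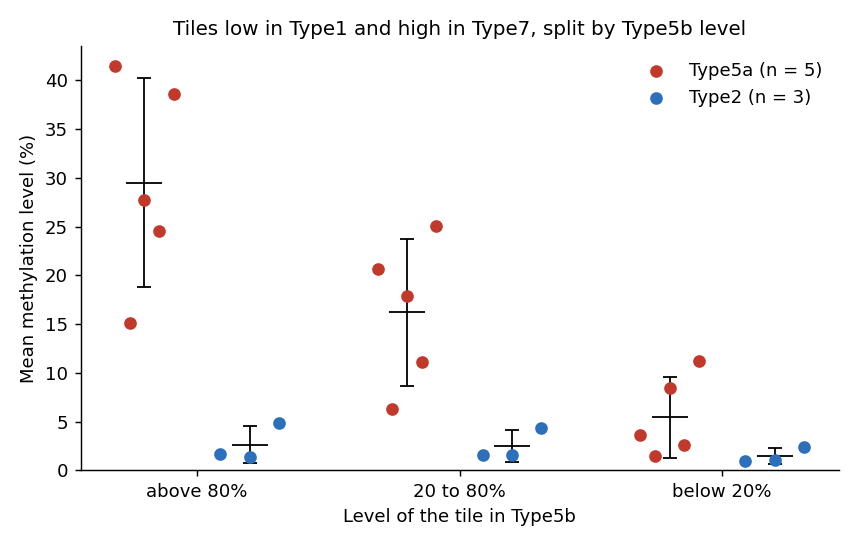
Mean level in percent (vertical axis) of low-to-high tiles grouped by their mean level in Type5b (horizontal axis), in Type5a (red) and Type2 (blue) libraries, with mean and SD as black bars. In tiles above 80% in Type5b the Type5a libraries lie at 15.1 to 41.5%, and in tiles below 20% in Type5b at 1.49 to 11.2%.

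Tiles that Type7 oocytes leave unmethylated differed little. Among tiles below 10% in Type1, those below 20% in Type7 (27868 tiles) averaged 2.75% ± 1.66 in Type5a and 1.27% ± 0.353 in Type2 (difference 1.47 points, two-sided exact permutation p = 0.143). Here Type5a replicates 5 and 7, at 4.08 and 4.92%, lay above replicates 1, 4 and 6, at 1.72, 1.05 and 1.95%, and without them the difference was 0.301 points. Those at 20 to 50% in Type7 (1374 tiles) differed by 5.57 points and those at 50 to 80% (928 tiles) by 6.34 points, against 18.3 points above 80%. After adjustment over these 4 classes no difference passed (two-sided exact permutation, adjusted p = 0.0952 for the upper 3 classes).

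Tiles that were already partly methylated in Type1 were also higher in Type5a, but this rested more on replicates 5 and 7. Tiles at 30 to 60% in Type1 (10802 tiles) averaged 48.3% ± 7.41 in Type5a and 39% ± 2.02 in Type2, a difference of 9.36 points. Tiles at 60% or more (5725 tiles) differed by 7.13 points and tiles below 10% (47019 tiles) by 4.11 points. Each of these passed (two-sided exact permutation, adjusted p = 0.0476 over 4 classes), whereas tiles at 10 to 30% (11609 tiles) differed by 11.6 points and did not (adjusted p = 0.0714). Without replicates 5 and 7 the differences were 4.43, 4.13, 2.45 and 5.58 points in the same order. Type4 averaged more than Type5a in all 4 classes, for example 54.6% ± 10.4 (n = 5) in tiles at 30 to 60% in Type1.

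The difference was larger where listed CpGs were sparse. It was 10.6 points in tiles with 0 to 9 listed sites per kb (27.1% ± 8.19 in Type5a and 16.5% ± 2.05 in Type2), 8.42 points at 10 to 19, 6.02 points at 20 to 39, 3.84 points at 40 to 59 and 1.58 points at 60 or more (10.5% ± 1.21 in Type5a and 8.96% ± 0.256 in Type2). None of the 5 passed after adjustment (two-sided exact permutation, adjusted p = 0.0714 each). The densest class minus the sparsest differed by -9.01 points between Type5a and Type2 (p = 0.0714 by the same exact test), or by -4.53 points without replicates 5 and 7. By chromosome, the difference ran from 5.68 points on chromosome 19 to 7.86 points on the X, with adjusted p = 0.0714 in the exact permutation test on all 20 chromosomes compared. Type4 averaged more than Type5a in every density class, from 32.9% ± 11.2 in the sparsest to 12.7% ± 2.19 in the densest (n = 5).

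Tile by tile, the quasi-binomial test called 1248 tiles higher in Type5a (1.56% of 80168) and 8 lower (0.00998%), where the adjusted p was below 0.05 and the stages differed by 20 points or more. At an unadjusted p under 0.05, 13407 tiles were higher and 2309 lower. Libraries did not overlap at 948 of the 1248, or 76%, against 9.56% of all tested tiles that were higher without overlap. The number of called tiles depended strongly on the test. A fit on the 2 stages alone called 31 higher (0.0387%), 26 of them among the 1248, and 0 lower, with 16198 tiles at an unadjusted p under 0.05. limma on the tile levels called 219 higher and 1 lower, and edgeR called 0 in either direction, with 4151 higher and 419 lower at an unadjusted p under 0.05. At most 10 reads per site left 82 higher, and leaving out Type5a replicates 5 and 7 left 391. Leaving out 1 library gave 344 (without Type2 replicate 2), 434 (without Type2 replicate 1), 528 (without Type5a replicate 7), 644 (without Type2 replicate 3) and at most 1698 (without Type5a replicate 4).

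Libraries that had no part in choosing tiles showed a smaller difference in the same direction. For each of the 15 pairs of 1 Type5a and 1 Type2 library, tiles were called higher in the other libraries (148 to 898 tiles) and then read in the pair left out. The left-out Type5a library lay above the left-out Type2 library by 24.2 points on average over the pairs (9.62 to 37.5), against 44.7 points (41.2 to 48.7) in the libraries that chose the tiles. The mean was 28.3, 13.4, 26.1, 16.5 and 36.4 points when Type5a replicate 1, 4, 5, 6 or 7 was left out. On average 78.6% of the tiles (60.7 to 92.9%) were higher in the left-out Type5a library. Over all tested tiles 65% had a higher stage mean in Type5a, and shares over all tiles in these pairs were not computed. Replicate 7 was highest and replicates 4 and 6 lowest here, as in the mean level over tiles measured in all 8 libraries. A difference particular to the called tiles thus cannot be told apart from a library-wide one.

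The called tiles were mostly tiles that stay methylated to the end of growth. By the choice of tiles, their mean level was high in Type5a (35.9 to 55.4%) and low in Type2 (8.17 to 9.80%). In stages outside the comparison, 805 of the 1083 with a Type7 level were above 80% there, or 74.3%, against 18.8% of tested tiles. Libraries of these stages also entered the fit and shared each tile's dispersion, so their levels are not independent of the calls. They are described and were not tested. Above 80% in Type5b were 569 of 1034, or 55%, against 9.3% of tested tiles. A minority went the other way, with 75 (6.93%) below 20% in Type7. Of low-to-high tiles, 497 of the 4427 tested, or 11.2%, were called higher. Called shares fell with CpG density, from 2.97% of tiles at 0 to 9 listed sites per kb through 2.25, 1.04 and 0.4% to 0.0538% at 60 or more.

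The tiles with the largest differences were near 0 in Type2 and high in the Type5a libraries that measured them. The 15 leading tiles without overlap of libraries averaged 80.4 to 91.6% in Type5a, and 13 of them were at 0 in every Type2 library that measured them. They rested on few libraries, with 6 measured in 2 Type5a libraries, 7 in 3, 2 in 4 and 0 in all 5. Type5a replicate 4, the lowest in low-to-high tiles, measured only chr10:77463501-77463600 among them, at 100%. All lay in sequence with 4 to 32 listed sites per kb, on 12 chromosomes. Type5a replicate 7, which stood apart in the X measure, measured all 15 tiles. At chr10:40952101-40952200 (100 and 60.9%) and chr12:111097101-111097200 (86.0 and 78.8%) the only Type5a libraries were replicates 5 and 7. The smallest adjusted p was at chr19:26739201-26739300, with 88.5, 84.0 and 84.9% in Type5a replicates 1, 5 and 7 and 0% in all 3 Type2 libraries (difference 85.8 points, quasi-binomial F test, adjusted p = 8.85e-07). Before Type5a this tile held 8.11% in Type1, 3.10% in Type3a, 5.16% in Type3b and 38.7% in Type4, and after it 95.1% in Type5b. At chr14:68406001-68406100 Type5a replicates 1, 5 and 7 had 89.1, 97.9 and 86.0%, against 0, 0 and 9.68% in Type2 replicates 1 to 3 (adjusted p = 0.000372), with 52.2% in Type4. The largest difference, 91.6 points, was at chr8:108228201-108228300, which lies 3203 bp downstream of the matched start of Pard6a, a cell polarity gene. There Type5a replicates 1, 6 and 7 had 91.4, 100 and 83.2%, against 0% in all 3 Type2 libraries (adjusted p = 0.0015). Over the 15 tiles the median Type4 level was 43.3% (0 to 100%), and those measured in Type5b and Type7 were at 83.3% or more and 93.5% or more.

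Called tiles stood close together more often than tiles that were not called. Within 200 bp after a called tile 24.3% of tested tiles were also called higher, against 0.823% after a tile that was not. The shares were 6.2 and 0.924% at 200 bp to 2 kb, and 4.9 and 1.97% at 2 to 20 kb. Close tiles can be read from the same fragments and have similar CpG density, so they are not independent, and no test was made. Joining called tiles within 2 kb gave 1102 runs, of which 966 were single tiles and 8 held at least 3. The run at chr13:112544001-112545800 held 4 called tiles of 5 tested, with 45.7, 1.20, 42.4, 63.8 and 58.4% in Type5a replicates 1, 4, 5, 6 and 7 and 1.82, 0 and 3.38% in Type2. All but replicate 4 were far above Type2, and the run stood at 75.8% in Type5b and 99% in Type7. The other run of 4, at chr12:68936401-68937400 (8 tested), was already partly methylated, with 33.9 to 55.8% in Type5a and 28.0 to 35.4% in Type2. At chr13:42251601-42251900 all 3 tiles were called, at 43.9, 71.1, 72.1 and 72.8% in Type5a replicates 1, 5, 6 and 7 and 0.803 to 4.17% in Type2. At chr2:168780701-168781000 replicates 1 and 6, at 61.2 and 40.7%, stood above replicates 4, 5 and 7, at 3.76, 9.23 and 9.64%, and all Type2 libraries were at 0. At chr15:35046401-35047100 (3 called of 7 tested) levels were 58.0 to 68.3% in Type5a and 40 to 43.6% in Type2. The other 3 runs of 3 called tiles are given too, chosen after their values were seen. The run at chr2:174282501-174282800 had 51.4 and 81.3% in Type5a replicates 5 and 7, against 0.383 and 0% in Type2 replicates 1 and 2. No other Type5a library measured it, and replicates 5 and 7 are those apart in the X measure. It was low again later, at 0.505% in Type5b and 1.33% in Type6. In earlier stages it held 26.6% in Type1, 14.2% in Type3a, 9.22% in Type3b and 5.26% in Type4. At chr3:78580301-78581100 (3 called of 6 tested) levels were 41.4 to 73.6% in Type5a and 34.2 to 39% in Type2. At chr9:121381401-121381700 they were 20.1 to 56.2% in Type5a and 0 to 1.10% in Type2, with 90.4% in Type5b.

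Of the 8 tiles called lower, 4 had no overlap of libraries (1.11% of tested tiles were lower without overlap). At chr8:54352101-54352200 Type5a replicates 1, 4 and 6 had 0, 37.0 and 0%, against 86.2, 98.2 and 47.6% in Type2 (adjusted p = 0.0378), and Type7 was at 63.2%. At chr17:39983201-39983300 all libraries were measured, with 9.81 to 17.4% in Type5a and 33.5 to 45.5% in Type2 (adjusted p = 0.00779). That tile held 13356 Type5a reads and 3109 Type2 reads, against medians of 535 and 537 over tested tiles. What this excess of reads comes from was not tested. The tile held 28.3% in Type1, 12.3% in Type3a, 13.2% in Type3b and 18.3% in Type4. The primary-follicle stages were thus already near the Type5a level, and later stages stayed near it (12.3% in Type5b and 16.2% in Type7). The others were at chrX:112130601-112130700 (0% in both Type5a libraries, 47.2 and 63.9% in Type2) and chr4:136833901-136834000 (0% in 3 Type5a libraries, 43.3 and 5.00% in Type2). No alternative left more than 12 tiles lower at the 20-point limit.

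Few gene starts differed. A window of 250 bases before and 50 after the start was placed for 8825 of 32851 starts in the RefSeq table, and 5043 windows were tested. Below 10% in both stages were 96.6% of them. The test called 9 windows of 8 genes higher (0.178%) and 3 windows lower (0.0595%), with 671 windows at an unadjusted p under 0.05, and the fit on the 2 stages alone called 0 in either direction. Of tiles inside a placed window 13 of 8587 were called higher (0.151%), against 1235 of 71581 outside (1.73%).

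The Mcts2 window, whose sequence is printed above, was higher in every Type5a library. It lies at chr2:152512634-152512933 on the plus strand and had 35.9, 25.6, 46.3, 47.3 and 48.2% in Type5a replicates 1, 4, 5, 6 and 7, against 0, 0 and 2.54% in Type2 replicates 1 to 3. The 2 zeros rested on 697 and 423 reads, where 3 counts would be 0.43 and 0.709%. The mean was 40.7% ± 9.77 (n = 5) in Type5a and 0.847% ± 1.47 (n = 3) in Type2 (difference 39.8 points, quasi-binomial F test, adjusted p = 0.0136). The call was lost without Type5a replicate 6 (adjusted p = 0.0543), without Type2 replicate 1 (0.106), in the fit on the 2 stages (0.0633) and when sites were limited to 10 reads (0.178), while the difference ran from 35.4 to 43.6 points over all alternatives. Across the series the window held 1.83% in Type1, 13.8% in Type3a, 18.5% in Type3b, 15.2% in Type4, 87.3% in Type5b, 93.7% in Type6 and 97.5% in Type7.

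**Figure D4:**
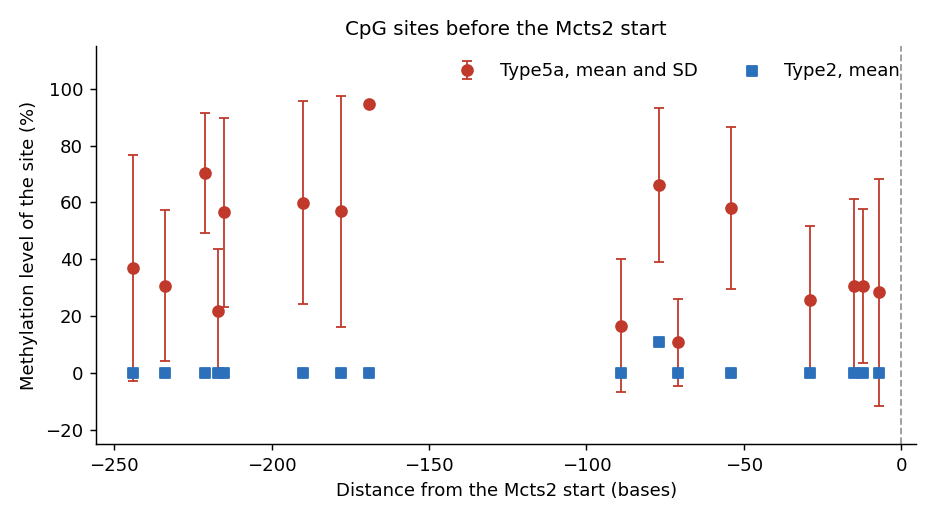
Methylation level in percent (vertical axis) of the 16 CpG sites measured in at least 2 libraries of each stage before the Mcts2 start, by distance from the start in bases (horizontal axis, dashed line at the start); red points and bars are the Type5a mean and SD between libraries, blue squares the Type2 mean. Site means run from 10.8 to 94.7% in Type5a and are 0 at 15 of 16 sites in Type2.

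Single CpGs of the Mcts2 window, in capitals in the sequence above, were methylated to different degrees in Type5a. All 16 sites with at least 2 libraries of each stage were higher in Type5a, with means of 10.8 to 94.7% and a median of 33.9%, against 0 at 15 sites and 11.1% at the other in Type2. Counted from the start, the site at base -169 had the highest mean (94.7%, 2 Type5a libraries) and the site at base -71 the lowest (10.8% ± 15.4, n = 5).

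Of the 18 maternal germline imprints listed, 7 had a placed window and 6 were tested. Mcts2 was the 1 called, and the median difference over the 6 was 12.3 points, against 0 over all windows. Plagl1, a zinc finger transcription factor, had 75.6, 4.44, 0 and 14.9% in Type5a replicates 1, 5, 6 and 7, against 0 and 1.30% in Type2 replicates 1 and 2 (adjusted p = 0.774 by the quasi-binomial F test). Replicate 1, on 45 reads, and replicate 7, on 315 reads, lay above both Type2 libraries by more than 10 points, and the window reached 98.8% in Type7. Zrsr1, an imprinted retrogene of the splicing factor family, had 22.4, 8.90, 0, 3.32 and 39.3% in Type5a, against 0, 0.877 and 3.54% in Type2 (adjusted p = 0.689). Snrpn, whose region controls the Prader-Willi/Angelman imprinted domain, had 6.09 and 70.8% in Type5a replicates 1 and 7 and 11.8, 18.0 and 52.0% in Type2, so the stages overlapped (adjusted p = 0.987). Grb10 and Igf2r averaged 1.34 and 0% in Type5a and 0.742 and 0% in Type2, and stayed at 5.01% or below in every stage; these windows lie at gene starts that need not be the imprinted region. The capitals in the Plagl1 sequence (RefSeq, GRCm38.p6, chromosome 10, plus strand, 250 bases before the start) mark 11 CpGs measured in Type5a or Type2, and it is shown beside that of Mcts2 as an imprint whose window was not called and whose Type5a libraries ranged widely.
Plagl1: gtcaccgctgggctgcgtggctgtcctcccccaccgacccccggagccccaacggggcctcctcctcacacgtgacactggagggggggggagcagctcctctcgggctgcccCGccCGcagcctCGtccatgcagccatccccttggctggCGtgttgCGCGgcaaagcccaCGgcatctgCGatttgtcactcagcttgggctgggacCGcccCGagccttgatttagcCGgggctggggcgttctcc

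The other lists held 0 called windows among 7 tested, which at 0.178% called over all windows says nothing about them. Of 5 paternal germline imprints 2 were tested, with Zdbf2 at 1.75% ± 1.26 in Type5a and 1.12% ± 1.01 in Type2, and Meg3 at 0 to 16.3% in Type5a and 0 to 36.3% in Type2. Of 10 genes of the methylation machinery 4 were tested, and their median difference was 0.0806 points. The window of Dnmt1, the maintenance methyltransferase, had 7.41, 0, 0 and 0% in Type5a replicates 1, 5, 6 and 7, against 0.077, 0.755 and 2.98% in Type2. It averaged 38.0% ± 50.4 in Type5b, where the 2 libraries differed widely, and 99.8% ± 0.282 (n = 3) in Type7. Of 12 oocyte genes only Nlrp5, a maternal effect gene, was tested, at 4.08, 30.3 and 35.9% in Type5a replicates 4, 5 and 7 and 4.80, 8.81 and 14.5% in Type2 (adjusted p = 0.557 by the quasi-binomial F test).

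The other windows called higher belonged to genes with little known function and rested on fewer libraries. Gm39010 had 40.9, 60.3 and 47.4% in Type5a replicates 4, 5 and 7 and 0% in all Type2 libraries (adjusted p = 0.0127), and Gm46967 18.6 to 46.5% in 5 Type5a libraries and 0.833 and 0% in Type2 (adjusted p = 0.0164). They already held 24.4% ± 19.9 (n = 2) and 23.8% (n = 1) in Type1, and 17.0 and 33.8% in Type4. In Type5b they stood at 99.0 and 71.0%. Pramel1, a member of the Prame-like family, had 2.08, 38.2, 85.5 and 32.7% in Type5a replicates 1, 5, 6 and 7 and 0% in Type2, but 0% in the 1 Type5b library that measured it and 4.96% in Type6. Gm42298, with 2 overlapping windows, had 6.00 and 70.0% in Type5a replicates 1 and 7, a mean of 1.62% in Type2 and 3.77% in Type5b. Its mean was 24.4% in both Type1 (n = 2) and Type4 (n = 5). Gm52698 had 5.45 to 79.0% in 4 Type5a libraries and 0% in 2 Type2 libraries. In Type1, Pramel1 and Gm52698 were at 0% (n = 2 each). The windows lower in Type5a, those of Miip and Fv1, which overlap, and of Cyb561d2, rested on 1 Type2 library at 41.0 and 84.9%, with the other at 0.

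Gm26553 and Gm26689 are shown together because their start regions are near copies on chromosome 3, sharing a run of 236 bases, so reads of the pair may be mixed and their values are uncertain. Gm26553 had 53.6, 0, 28.2 and 23.9% in Type5a replicates 1, 4, 6 and 7 and 0 to 1.20% in Type2. Gm26689 had 57.7, 5.26, 26.6 and 14.3% in Type5a replicates 1, 5, 6 and 7 and 0 to 1.09% in Type2. They stood at 94.8 and 91.5% in Type5b. Capitals mark measured CpGs in the 250 bases before each start (RefSeq, GRCm38.p6), on the minus strand for Gm26553 and the plus strand for Gm26689.
Gm26553: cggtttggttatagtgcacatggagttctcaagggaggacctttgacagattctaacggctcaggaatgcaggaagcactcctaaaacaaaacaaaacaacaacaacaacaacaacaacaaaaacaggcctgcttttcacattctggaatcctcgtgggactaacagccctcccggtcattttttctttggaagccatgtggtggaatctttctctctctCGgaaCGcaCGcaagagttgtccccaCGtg
Gm26689: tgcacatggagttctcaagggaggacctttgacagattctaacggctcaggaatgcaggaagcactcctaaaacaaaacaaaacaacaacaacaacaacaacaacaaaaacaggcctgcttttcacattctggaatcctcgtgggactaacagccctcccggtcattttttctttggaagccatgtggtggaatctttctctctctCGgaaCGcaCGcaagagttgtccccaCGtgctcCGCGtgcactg

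Within the same tiles, CpGs with different neighbouring bases were methylated to different degrees in Type5a. Sites of the form RCGY (a purine before and a pyrimidine after the CpG) were compared with YCGR sites of the same low-to-high tiles, leaving out CCGG, the MspI site. As background, the purified enzyme DNMT3A is known to prefer RCGY over YCGR. RCGY sites were higher by 7.65, 2.75, 2.14, 3.72 and 3.95 points in Type5a replicates 1, 4, 5, 6 and 7, against 0.176, -0.197 and 0.362 points in Type2 replicates 1 to 3. Every Type5a library lay above every Type2 library, with means of 4.04 ± 2.14 points (n = 5) in Type5a and 0.114 ± 0.284 points (n = 3) in Type2 (difference 3.93 points, two-sided exact permutation p = 0.0357). Without replicates 5 and 7 it was 4.60 points. RCGY and YCGR sites averaged 21 and 17% in Type5a, against 1.80 and 1.68% in Type2, and levels near 0 leave little room for a gap, so the difference in the gap cannot be told apart from the difference in level.

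**Figure D5:**
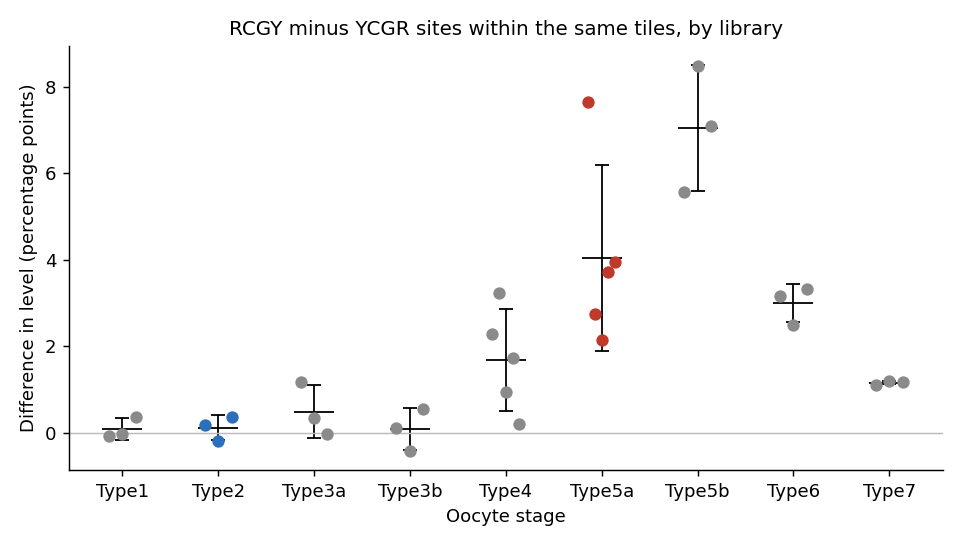
Level of RCGY minus YCGR sites within the same low-to-high tiles, in percentage points (vertical axis), for each library (points) of the 9 stages in their order, with mean and SD as black bars; Type5a is red and Type2 blue. Type5a libraries lie at 2.14 to 7.65 points and Type2 libraries at -0.197 to 0.362 points.

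The gap between RCGY and YCGR sites was 0.0808 points in Type1, 0.483 in Type3a, 0.0767 in Type3b and 1.68 ± 1.18 in Type4, followed by 7.05 ± 1.46 points for Type5b, 3.00 for Type6 and 1.15 for Type7. Type4 had nearly the same tile level as Type5a, with a gap of 0.194 to 3.24 points that overlapped the Type5a range. Levels near 100% leave as little room for a gap as levels near 0, and these stages are given side by side, with no test. By single context, Type5a exceeded Type2 most at ACGC sites (21.8% ± 8.55 in Type5a and 1.80% ± 1.74 in Type2, 20 points) and ACGT sites (19.6 points), and least at TCGA (15 points) and CCGA sites (15.3 points), which are YCGR. The remaining RCGY context, GCGC, differed by 16.6 points, less than the 4 contexts that are neither RCGY nor YCGR (17.3 to 18.6 points), so the contexts did not order fully by class. Sites of each context were counted with its reverse complement. CCGG sites stood apart in Type2, at 7.36% ± 1.72, against 1.49 to 2.00% at all other contexts, and were at 22.9% ± 7.73 in Type5a. As CCGG is where MspI cuts and it is not given whether reads were trimmed, these levels are uncertain. CCGG sites were left out only of the RCGY and YCGR comparison and enter the tile levels.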

How the data were processed

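DNA methylation was measured by reduced representation bisulfite sequencing. Per the labels' protocols, oocyte DNA was cut with MspI and given premethylated adaptors before bisulfite conversion and PCR, and fragments of 200 to 700 bp were kept. The submitters' processing notes name BSMAP 2.89 and the build mm9; which caller was run, and whether reads were trimmed, is not given in the sources used here. The deposited files give counts of all and of methylated reads per CpG site, with strand counts, and the authors' methylated fraction of each site. No listed site has under 3 reads. PCR copies cannot be told from separate molecules, so limits from counts of 0 cover counting error only. Strain variants from C to T count as unmethylated, unconverted cytosines as methylated.

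Reads of sites covered 5 times or more were added up in 100-bp tiles, of which those holding 3 or more such sites were kept; levels are 100 times methylated over all reads. Tiles measured in at least 2 libraries of both stages were tested with a quasi-binomial model with stage as factor over all 31 libraries (dispersion moderated as in limma's squeezeVar, floor 1, F test, Benjamini-Hochberg), and called at an adjusted p under 0.05 and 20 points. For values per library, stages were compared with exact permutation tests (two-sided). On simulated reads the tile model called more unchanged tiles than its nominal rate and missed many changed ones, so calls are set beside other tests and left-out libraries. Class levels average the tiles each library measured.

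Named tiles are the 15 called higher and up to 10 called lower with the largest difference and no overlap of libraries, at most 1 per 10 kb, plus the runs with the most called tiles (up to 5, and those tied with them). The leading tiles not printed one by one, 1 of them on chromosome 18, are given within ranges. The Type5a and Type2 comparison, the lists and classes, and the X measure were chosen with earlier results of these data known. The promoter windows, the flanking bases and the classes over tiles measured in all 8 libraries were added after the files were seen. The planned placing of genes by annotation of the files' build was not possible, and windows were placed by matching at least 5 CpGs of each RefSeq start to listed sites by spacing and neighbouring bases, with 1 place on the chromosome. Of placed windows, 99.5% had the same shift against the RefSeq build as a neighbour. The alternative tests on tile levels and on reads used edgeR 4.0.16 and limma 3.58.1 under R 4.3.3, and all other steps pandas 2.3.3, scipy 1.17.1, numpy 2.4.6 and matplotlib 3.10.9 under Python 3.11.15.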

Additional observations from a re-analysis of the deposited data

Results flagged for a closer look

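Reads listed on the mitochondrial genome, which no comparison used, were more frequent in Type5a than in Type2. Scaled to library reads (RPM), they numbered 36.5, 33.3, 65.2, 493 and 27.5 in Type5a replicates 1, 4, 5, 6 and 7, with a mean of 131, against 1.48, 0.642 and 0 in Type2 replicates 1 to 3. The value of 493 RPM in Type5a replicate 6 lay far from the other 4 Type5a libraries. Of 20 measures checked in Type5a for a single library far from the other 4, this was the 1 that had any, and chance flags about 1 in 20. The X measure was among the 20; there replicates 5 and 7 lay above the other 3, so no single library was far from all others. The difference between the stages was not tested.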

How the results depend on the processing

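Differences are Type5a minus Type2 in points. In the exact permutation tests, the smallest p with 4 against 3, 5 against 2 or 3 against 3 libraries is 0.0571, 0.0952 and 0.1. Calls of these tests lost on leaving out libraries therefore say nothing about stability. The quasi-binomial F test has no such limit, and its counts of tiles and windows moved with single libraries. Leaving out each library in turn, the difference ran from 4.83 to 7.8 for the mean level, 16 to 21 in low-to-high tiles, 19.5 to 25.5 for the Type5b classes and 3.03 to 4.4 for RCGY minus YCGR. It ran from 3.23 to 4.95, 6.76 to 11 and 5.48 to 8.28 in tiles below 10%, at 30 to 60% and at 60% or more in Type1. Counts ran from 344 to 1698 tiles higher, 5 to 12 tiles lower, 1 to 14 promoter windows higher and 0 to 3 lower; 1 window was left without Type5a replicate 6 or Type2 replicate 1, 3 without Type2 replicate 2, 5 without Type5a replicate 1. The X measure difference, 1.09, ran from -0.0726 (without Type5a replicate 7) to 1.7, and was -1.26 without replicates 5 and 7. Without those 2, calls were lost at 15.1 (low-to-high), 23.4 (Type5b classes), 4.6 (RCGY minus YCGR) and 2.45, 4.43 and 4.13 (the same Type1 classes), with 391 tiles higher, 16 windows higher and 1 lower. The Type1 classes also lost their calls with at least 3 reads per site (4.25, 9.32, 6.61), 500-bp tiles (5.97, 9.34, 6.48) and tiles measured in all 8 libraries (3.85, 8.9, 7.01). The mean level passed at 6.83 with at least 10 reads per site, 5.08 with at least 5 sites per tile, 7.39 over all tiles a library measures and 7.35 over sites. With at least 5 sites per tile 4 density classes passed (7.73, 5.27, 3.18 and 1.27, sparse to dense). The count of higher tiles was 82 with at most 10 reads per site, 433 with at least 5 sites, 630 over tiles in all 8 libraries, 31 in the fit on 2 stages, 219 by limma and 0 by edgeR. Lower tiles numbered 2 with at least 10 reads, at least 5 sites or all 8 libraries, 1 with at most 10 reads or limma, 0 in the fit on 2 stages or edgeR, 32 at a 10-point and 3 at a 30-point limit. Promoter windows higher numbered 3 with at least 10 reads and 0 with at most 10 reads or the fit on 2 stages; windows lower numbered 1 with at least 3 reads and 0 under those 3 settings. The 2 stages share only replicate number 1, so numbers do not pair the libraries; a fit with replicate number as a block called 1346 tiles higher and 4 lower. Of 190 comparisons with an alternative other than leaving out 1 library, 138 had the same direction and the same side of the threshold (counts within 1.5 times), whether or not the result passed to begin with, 17 fell below the threshold, 8 rose past it, 26 moved and 1 reversed. The causes of these changes were not tested. Of 80168 tested tiles 24966 were measured in all 8 libraries.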
